A study of Mus musculus with 6 samples.

Results

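The inhibin, activin and follistatin genes described here are 10 genes that encode the inhibin and activin subunits (Inha, Inhba, Inhbb), the secreted binding proteins Fst and Fstl3, the receptors Acvr1b, Acvr2a and Acvr2b, the coreceptor Tgfbr3, and Igsf10, a large immunoglobulin superfamily protein. They were selected by symbol as a list for this system, with earlier results of these data known. All 10 were found among the 33036 features of the table of messenger and long noncoding RNA levels. The libraries were made from whole ovaries of female C57BL/6J mice. The hypobaric hypoxia group was kept in a low-pressure chamber at a simulated altitude of 6500 m (43.12 kPa, with an oxygen pressure of 8.1 kPa), opened for 0.5 h every other day for feeding, and gave 3 libraries. The normal pressure group was housed at the local altitude of Lanzhou, labelled 1500 m or 1588 m (83.56 kPa, with an oxygen pressure of 17.8 kPa), and gave 3 libraries. The labels conflict on the simulated altitude, which is 5000 m in the sample descriptions, on the length of housing, which is 15 days in the series text and 15, 16 or 17 days in the descriptions of replicates 1, 2 and 3, and on age, which is 8 weeks or 6 to 8 weeks. They also list 12 h of light with 12, 13 and 14 h of dark for normal pressure replicates 1, 2 and 3. Mice of both groups were cycle-synchronised with oral levonorgestrel and ethinylestradiol before exposure. Doses, 0.1 and 0.02 mg/kg, are listed in the hypoxia descriptions alone. Groups were of 15 mice, and the labels do not link libraries to single mice or pools. A p-value here therefore measures library-to-library spread, part of which may be technical.

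Inhibins and activins are dimers made from a shared set of subunits. Inhibin joins the alpha subunit (Inha) to a beta subunit, beta A (Inhba) or beta B (Inhbb), and activin joins 1 beta subunit to another. In the ovary they come mainly from granulosa cells of growing follicles, and inhibin reaches the pituitary, where it lowers the release of follicle-stimulating hormone (FSH). Activin binds a type II receptor, which then recruits a type I receptor such as Acvr1b and starts SMAD signalling. Follistatin traps activin before it reaches the receptor, and inhibin competes for type II receptors with the help of betaglycan, the product of Tgfbr3.

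Levels are in TPM, a share of all transcripts that is corrected for transcript length, so that levels of different genes can be set side by side. Read depth is unknown, because TPM does not keep it. Pearson correlations of log2(TPM + 1) across tested features lay between 0.977 and 0.983 among hypoxia libraries and were 0.992 among normal pressure libraries. Normal pressure replicate 2 stood apart in its makeup. Protein-coding genes, leaving out the very abundant feature Zfp949, held 37.6% of its TPM, against 42.6% to 44.5% in the hypoxia libraries and 43.9% and 46.1% in the other normal pressure libraries. Of the 10 member genes, 9 had their lowest normal pressure value in that library, the exception being Inha. The groups differed in makeup too. Zfp949 alone held 10.2% to 13.7% of TPM in the hypoxia libraries and 14.5% to 16.3% in the normal pressure libraries. Results are therefore also given after each library was rescaled to its protein-coding total without Zfp949. Hypoxia replicate 3 scored 12.4 on the first principal component and hypoxia replicates 1 and 2 scored 29.8 and 34.5, against -26.9 to -24.4 at normal pressure. All 14 granulosa and 13 oocyte markers were present in the table, and none was at 0 in every library. That held as well for every gene found of the other marker lists, adipose and oviduct markers included. It therefore does not check the tissue label.

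The comparison asks which genes of this system differ in the ovary after exposure to low pressure. Fst, Acvr2b and Tgfbr3 rose under hypobaric hypoxia and Inhba fell. Follistatin had the largest difference of the 10, with a mean level 1.64 times that at normal pressure, and beta A had a mean level of 0.715 times. The alpha subunit Inha, the most abundant member, did not pass the test. The test was limma on log2(TPM + 1), fitted over all 17120 features with at least 1 TPM in at least 3 libraries and called at a Benjamini-Hochberg adjusted p under 0.05. All 10 members passed that filter, each with more than 1 TPM in all 6 libraries. Of them 4 were called, where 18.3% of all tested features were called. Higher calls numbered 3 (11.1% of all features) and lower calls 1 (7.20%). The median log2 fold change was 0.24 over the members and 0.08 over all tested features. The groups did not overlap for 8 members, 6 higher and 2 lower, where 39.2% of all features did not overlap (27.6% higher and 11.6% lower). With rescaling to the protein-coding total, 7 members were called, 5 higher and 2 lower, where 36.5% of all features were then called (21.6% higher and 14.9% lower). The same member counts were found with median-ratio scaling, where 34.7% of features were called (16.0% higher and 18.7% lower), and with quantile normalization, where 36.0% were called (19.9% higher and 16.2% lower). The members called beyond those of TPM as deposited were Inhbb, Igsf10 and Fstl3. Across all features 60.7% of calls were higher with TPM as deposited, 46.0% with median-ratio scaling and 46.4% without normal pressure replicate 2. These are whole-ovary values, so fewer cells of a type and less RNA per cell cannot be told apart.

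**Figure D1:**
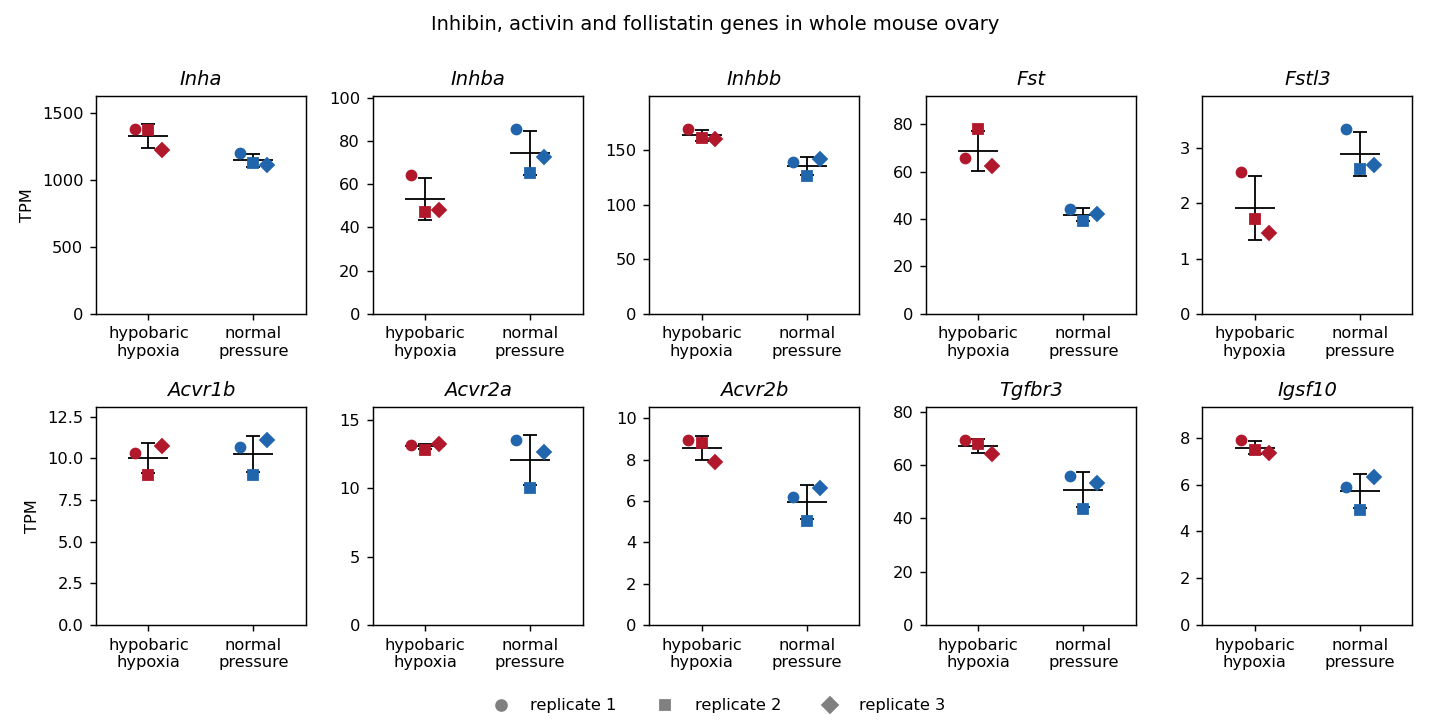
TPM of the 10 genes in each library, with hypobaric hypoxia left and normal pressure right in each panel, marker shapes for replicates 1 to 3, and bars for the mean and SD (n = 3 each). The groups are separate in 8 panels and overlap in those of Acvr1b and Acvr2a.

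Markers of ovarian cell types moved with the groups too, where 11.1% of all features were called higher and 7.20% lower. After rescaling to the protein-coding total those shares were 21.6% and 14.9%. Of 14 granulosa markers 7 rose and 1 fell, Cyp19a1 (log2 fold change -1.98, limma adjusted p = 0.00012). The summed level of the 14 was 1457 to 1620 TPM in hypoxia libraries and 1070 to 1213 TPM in normal pressure libraries. The count of rises was 4 without hypoxia replicate 1, hypoxia replicate 2 or normal pressure replicate 1, and with no filter on low values, and the falls numbered 3 without normal pressure replicate 2 and after rescaling to the protein-coding total. All 11 luteal markers fell (7 with no filter), with sums of 2056 to 2734 TPM under hypoxia and 4969 to 7568 TPM at normal pressure. All 12 tested oocyte markers rose (7 with no filter), with sums of 223 to 275 TPM under hypoxia and 136 to 173 TPM at normal pressure. For theca and interstitial cells 5 of 9 markers were called higher and 1 lower, and the sums overlapped, at 1004 to 1082 TPM under hypoxia and 1018 to 1349 TPM at normal pressure. The higher calls numbered 3 with no filter, and the lower calls 2 without normal pressure replicate 2 and after rescaling to the protein-coding total. The sums are weighted to abundant genes, such as the granulosa marker Gja1, which averaged 699 TPM under hypoxia and 514 TPM at normal pressure. Among theca and interstitial markers, Aldh1a1 averaged 597 TPM under hypoxia and 723 TPM at normal pressure and was not called. No gene of these lists was at 0 in all libraries. Their part in the results on the member genes was not tested.

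The subunit genes differed widely in level, and of them only Inhba was called. Inha (GRCm38.p6 chromosome 1, 75507077 to 75510366) measured 1379, 1371 and 1221 TPM in hypoxia replicates 1 to 3, against 1201, 1127 and 1110 TPM in normal pressure replicates 1 to 3. It was the most abundant member in all 6 libraries, and its group means were 52nd among all features under hypoxia and 54th at normal pressure. Every hypoxia value lay above every normal pressure value, but hypoxia replicate 3 exceeded normal pressure replicate 1 by little. The log2 fold change of Inha was 0.21 (SE 0.13, 95% interval -0.08 to 0.49) and did not pass (limma adjusted p = 0.31). It passed under none of the 15 alternatives, where it ranged from 0.11 to 0.26, with adjusted p between 0.19 and 0.62. After rescaling to the protein-coding total the groups overlapped, with 1236 to 1344 TPM under hypoxia and 1038 to 1293 TPM at normal pressure.

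Inhba, the beta A gene, fell. The gene (chromosome 13, 16004256 to 16031609) measured 64.4, 47.2 and 47.9 TPM in hypoxia replicates 1 to 3, against 85.6, 65.3 and 72.4 TPM in normal pressure replicates 1 to 3. There was no overlap, although hypoxia replicate 1 came within 1 TPM of normal pressure replicate 2. Inhba averaged 53.2 ± 9.75 TPM under hypoxia and 74.4 ± 10.3 TPM at normal pressure (SD, n = 3 each), a log2 fold change of -0.48 (SE 0.14, limma adjusted p = 0.021). The fall kept its direction under all 15 alternatives, from -0.63 to -0.38. It did not pass without hypoxia replicate 2 (limma adjusted p = 0.064), without normal pressure replicate 1 (limma adjusted p = 0.061) or with no filter on low values (limma adjusted p = 0.13). A transcribed pseudogene, B230303A05Rik, overlaps the locus and measured 5.43 to 6.32 TPM under hypoxia and 4.82 to 6.28 TPM at normal pressure. Use of strand in the counting is not given in the sources used here, so the division of reads between overlapping genes is uncertain.

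Inhbb, the beta B gene (chromosome 1, 119415463 to 119422248), measured 169, 161 and 160.2 TPM in hypoxia replicates 1 to 3, against 139, 126 and 141 TPM in normal pressure replicates 1 to 3. No values overlapped, and the hypoxia libraries lay close together, with an SD of 5.07 TPM around 164 TPM. The log2 fold change was 0.27 (SE 0.11, 95% interval 0.04 to 0.50) and missed the threshold (limma adjusted p = 0.093). It passed after rescaling to the protein-coding total (log2 fold change 0.23, limma adjusted p = 0.0092), with quantile normalization (limma adjusted p = 0.0035), with median-ratio scaling (limma adjusted p = 0.030) and without normal pressure replicate 2 (limma adjusted p = 0.030).

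The fold changes of the beta genes had opposite signs, and their ratio does not depend on how a library is scaled. Inhbb was 2.63, 3.42 and 3.34 times as abundant as Inhba in hypoxia replicates 1 to 3, against 1.63, 1.93 and 1.95 times in normal pressure replicates 1 to 3. All hypoxia ratios exceeded all normal pressure ratios. The log2 ratio was 1.64 ± 0.21 under hypoxia and 0.87 ± 0.15 at normal pressure (SD, n = 3 each), a difference of 0.76. The exact two-sided permutation p was 0.1, the smallest that 3 libraries against 3 can give. Inha exceeded the sum of the beta genes 5.90, 6.58 and 5.86 times in the hypoxia libraries and 5.34, 5.90 and 5.19 times in the normal pressure libraries. That ratio overlapped between the groups (log2 difference 0.16, exact two-sided permutation p = 0.3), and the difference was 0.11 to 0.21 when 1 library was left out.

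The windows around the annotated starts of the beta genes, from 250 bases before to 50 bases after each start, are shown because Inhba was called and its paralog Inhbb, with a fold change of opposite sign, was not. Both are from RefSeq on GRCm38.p6 and run 5′ to 3′ along the gene. Capitals mark matches on either strand to the hypoxia-inducible factor (HIF) core motif ACGTG or GCGTG and to the TATA box letters TATAAA. The Inhba window is chr13:16011601-16011900 on the plus strand, and its start site lies 7595 bases inside the 5′ end of the RefSeq gene. The Inhbb window is chr1:119422199-119422498 on the minus strand, with its start at the gene's 5′ end.
Inhba: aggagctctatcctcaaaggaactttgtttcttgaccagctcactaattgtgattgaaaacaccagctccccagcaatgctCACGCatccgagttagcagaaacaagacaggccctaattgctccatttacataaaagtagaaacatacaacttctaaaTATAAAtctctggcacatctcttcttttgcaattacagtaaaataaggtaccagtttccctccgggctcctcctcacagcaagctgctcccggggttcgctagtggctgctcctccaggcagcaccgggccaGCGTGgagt
Inhbb: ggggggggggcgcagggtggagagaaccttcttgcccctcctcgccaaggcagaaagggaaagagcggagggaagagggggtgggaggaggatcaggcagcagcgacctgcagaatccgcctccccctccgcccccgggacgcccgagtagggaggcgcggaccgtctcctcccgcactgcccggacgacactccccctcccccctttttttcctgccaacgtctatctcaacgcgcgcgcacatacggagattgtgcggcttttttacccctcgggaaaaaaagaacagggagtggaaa
The Inhba window is 47.7% G and C with 7 CpG dinucleotides, and the Inhbb window is 64.3% G and C with 23, where the median over 32851 such windows is 52.7% and 7. The Inhba window holds 2 HIF core matches and 1 match to TATAAA, at -91 from the start, and the Inhbb window holds neither. An HIF core match is found in 43.8% of all windows and TATAAA in 13.6%. The motifs TGACG of cyclic AMP response elements (20.8% of windows), AGGTCA of NR5A receptors (16.3%), AGATAA or TGATAA of GATA factors (18.6%) and TGTGGT of RUNX factors (16.8%) were searched as well, and neither beta window has these letters on either strand.

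Of the binding proteins, Fst rose and Fstl3 did not pass. Fst, which encodes follistatin (chromosome 13, 114452262 to 114458989), measured 65.8, 78.0 and 62.3 TPM in hypoxia replicates 1 to 3, against 44.4, 39.2 and 41.9 TPM in normal pressure replicates 1 to 3. The lowest hypoxia value was well above the highest normal pressure value. The log2 fold change was 0.70 (SE 0.11, limma adjusted p = 0.00062), larger in size than that of 95.4% of all tested features. Fst passed under all 15 alternatives, with log2 fold changes of 0.60 to 0.76 and limma adjusted p between 2.06e-07 and 0.024. A long noncoding RNA, Gm41074, overlaps Fst and stayed under 1 TPM in every library.

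Fstl3, a related activin-binding protein, was the least abundant member in all libraries. The gene (chromosome 10, 79777274 to 79782630) measured 2.57, 1.72 and 1.46 TPM in hypoxia replicates 1 to 3, against 3.35, 2.63 and 2.69 TPM in normal pressure replicates 1 to 3. No overlap was seen, but hypoxia replicate 1 came close to normal pressure replicate 2. The log2 fold change was -0.43 (SE 0.15, 95% interval -0.76 to -0.10), opposite in sign to that of Fst, and missed the threshold (limma adjusted p = 0.066). It passed without hypoxia replicate 1 (limma adjusted p = 0.013) and after rescaling to the protein-coding total (limma adjusted p = 0.045). At such levels the log2(TPM + 1) scale understates the difference, since the ratio of the mean levels was 0.663.

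Binding protein transcripts per beta subunit transcript did not overlap between the groups. The numerator of this ratio was nearly all Fst, which averaged 68.7 TPM under hypoxia and 41.9 TPM at normal pressure. Fstl3, with a fold change of opposite sign, averaged 1.92 and 2.89 TPM. The sum of Fst and Fstl3 over the sum of Inhba and Inhbb was 0.293, 0.383 and 0.306 in hypoxia replicates 1 to 3, against 0.212, 0.219 and 0.209 in normal pressure replicates 1 to 3. The normal pressure ratios lay within 0.0053 (SD) of 0.213, and all hypoxia ratios were above them. The difference was 0.61 on the log2 scale (exact two-sided permutation p = 0.1, the smallest possible) and stayed between 0.49 and 0.68 when 1 library was left out. Fst alone, a ratio chosen after its values were seen, was 1.02, 1.65 and 1.30 times as abundant as Inhba in the hypoxia libraries and 0.519, 0.601 and 0.579 times in the normal pressure libraries.

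**Figure D2:**
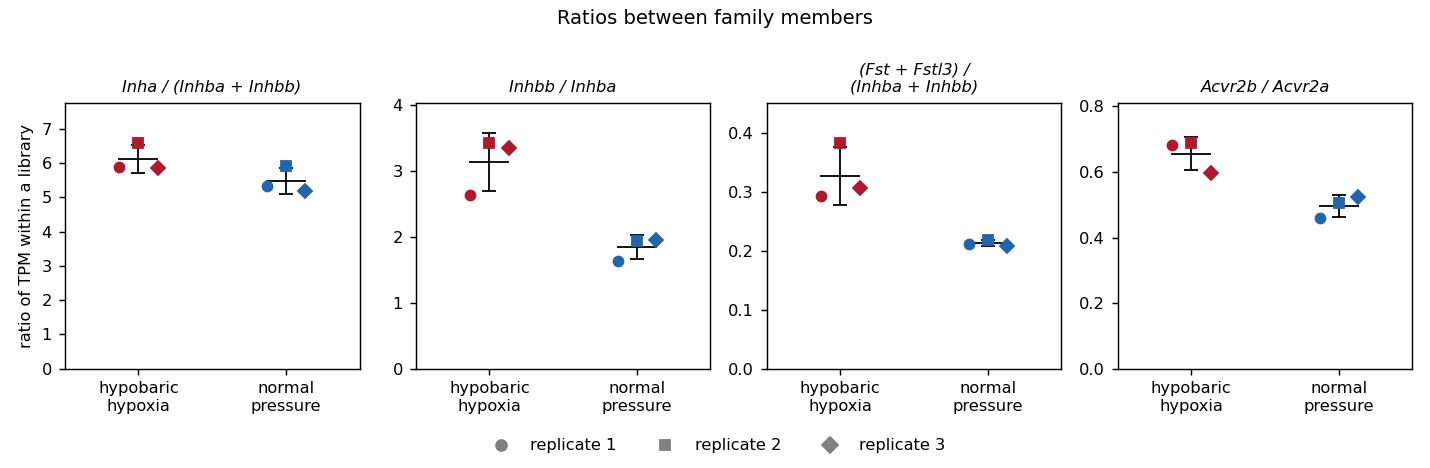
Ratios of TPM between member genes within each library, with hypobaric hypoxia left and normal pressure right, marker shapes for replicates, and bars for mean and SD (n = 3 each). The groups are separate for Inhbb over Inhba, for binding proteins over beta subunits and for Acvr2b over Acvr2a, and overlap for Inha over the beta subunits.

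Of the type II receptors, which bind the ligand first, Acvr2b rose and Acvr2a did not pass. Acvr2b (chromosome 9, 119401583 to 119442148) measured 8.94, 8.81 and 7.89 TPM in hypoxia replicates 1 to 3, against 6.20, 5.05 and 6.62 TPM in normal pressure replicates 1 to 3, with no overlap. The log2 fold change was 0.46 (SE 0.12, limma adjusted p = 0.017). It did not pass without hypoxia replicate 1 (limma adjusted p = 0.063) or with no filter on low values (limma adjusted p = 0.083).

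Acvr2a (chromosome 2, 48814109 to 48903264) measured 13.1, 12.8 and 13.2 TPM in hypoxia replicates 1 to 3, against 13.5, 10.01 and 12.6 TPM in normal pressure replicates 1 to 3. The hypoxia values lay inside the range of the normal pressure values. The log2 fold change was 0.12 (95% interval -0.14 to 0.37, limma adjusted p = 0.54), and it was -0.00058 without normal pressure replicate 2. The 3′ end of Acvr2a overlaps Orc4, a replication origin gene at 14.0 to 15.3 TPM under hypoxia and 12.0 to 16.1 TPM at normal pressure.

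As a ratio, Acvr2b was 0.682, 0.688 and 0.597 of Acvr2a in hypoxia replicates 1 to 3, against 0.459, 0.504 and 0.525 in normal pressure replicates 1 to 3. The groups did not overlap. The log2 difference was 0.40 (exact two-sided permutation p = 0.1, the smallest possible), between 0.35 and 0.47 with 1 library left out. Their RefSeq windows on GRCm38.p6 are shown because Acvr2b was called and its paralog Acvr2a was not, which does not by itself show that they differ. They are marked as above. The Acvr2a window is chr2:48813859-48814158 and the Acvr2b window chr9:119401928-119402227, both on the plus strand. The Acvr2b start lies 595 bases inside the RefSeq gene.
Acvr2a: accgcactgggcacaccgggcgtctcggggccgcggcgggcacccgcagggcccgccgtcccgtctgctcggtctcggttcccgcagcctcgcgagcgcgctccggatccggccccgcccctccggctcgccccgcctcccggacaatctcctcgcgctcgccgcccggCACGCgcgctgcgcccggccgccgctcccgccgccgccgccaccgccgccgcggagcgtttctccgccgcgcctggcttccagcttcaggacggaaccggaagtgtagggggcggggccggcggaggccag
Acvr2b: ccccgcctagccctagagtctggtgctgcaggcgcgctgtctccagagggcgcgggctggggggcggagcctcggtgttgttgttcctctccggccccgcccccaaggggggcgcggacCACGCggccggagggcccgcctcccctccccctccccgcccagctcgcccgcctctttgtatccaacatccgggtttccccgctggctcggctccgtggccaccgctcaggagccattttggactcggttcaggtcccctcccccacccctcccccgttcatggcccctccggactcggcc
Each holds 1 HIF core match and no match to TATAAA. The windows are 80.3% G and C with 54 CpG dinucleotides for Acvr2a, and 73.3% with 27 for Acvr2b. Windows around an annotated start were found for 8 of the 10 members, with none for Fst or Tgfbr3. The starts of the Inha and Igsf10 windows lie 532 and 182 bases inside the 5′ ends of their RefSeq genes. Of the windows not shown, that of Acvr1b held 3 HIF core matches, that of Fstl3 1, and those of Inha and Igsf10 0. The Acvr1b matches at -54 and -53 are opposite strands of the same letters, CACGTG. Other motifs matched in the windows not shown were AGGTCA in those of Inha and Fstl3, TGACG in that of Igsf10 and TATAAA in that of Fstl3.

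The type I receptor gene Acvr1b (chromosome 15, 101174072 to 101213684) measured 10.3, 8.99 and 10.8 TPM in hypoxia replicates 1 to 3, against 10.7, 9.02 and 11.1 TPM in normal pressure replicates 1 to 3. The ranges nearly coincided. Its log2 fold change was -0.03 (SE 0.12, 95% interval -0.29 to 0.23, limma adjusted p = 0.89), an interval that allows a fall or a rise up to these bounds. Tgfbr3, whose product betaglycan holds inhibin at the cell surface, was far more abundant than the 3 signalling receptors. The gene (chromosome 5, 107106567 to 107289629) measured 69.4, 68.0 and 64.3 TPM in hypoxia replicates 1 to 3, against 55.9, 43.5 and 53.2 TPM in normal pressure replicates 1 to 3. The groups did not overlap, and the log2 fold change was 0.40 (SE 0.12, limma adjusted p = 0.024). The rise did not pass without hypoxia replicate 1 (limma adjusted p = 0.082), without hypoxia replicate 2 (limma adjusted p = 0.073) or with no filter on low values (limma adjusted p = 0.086). After rescaling to the protein-coding total Tgfbr3 spanned 65.1 to 67.3 TPM under hypoxia and 49.8 to 54.9 TPM at normal pressure, and passed (limma adjusted p = 0.0025).

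Igsf10 is known in humans for variants linked to delayed puberty. It is counted as a member by its place on the list, with no role in inhibin or activin signalling assumed. The gene (chromosome 3, 59316735 to 59344438) measured 7.90, 7.47 and 7.36 TPM in hypoxia replicates 1 to 3, against 5.90, 4.91 and 6.32 TPM in normal pressure replicates 1 to 3. Group ranges were separate, yet the log2 fold change of 0.36 (SE 0.12, 95% interval 0.10 to 0.62) narrowly missed the threshold (limma adjusted p = 0.051). It passed without normal pressure replicate 2 (limma adjusted p = 0.044), without normal pressure replicate 3 (limma adjusted p = 0.042), with a minimum of 5 TPM (limma adjusted p = 0.049) and after rescaling to the protein-coding total (limma adjusted p = 0.0052). Rescaled, Igsf10 spanned 7.32 to 7.65 TPM under hypoxia and 5.63 to 5.91 TPM at normal pressure. Its locus overlaps Med12l, which measured 2.25 to 2.49 TPM under hypoxia and 1.42 to 1.99 TPM at normal pressure.

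**Figure D3:**
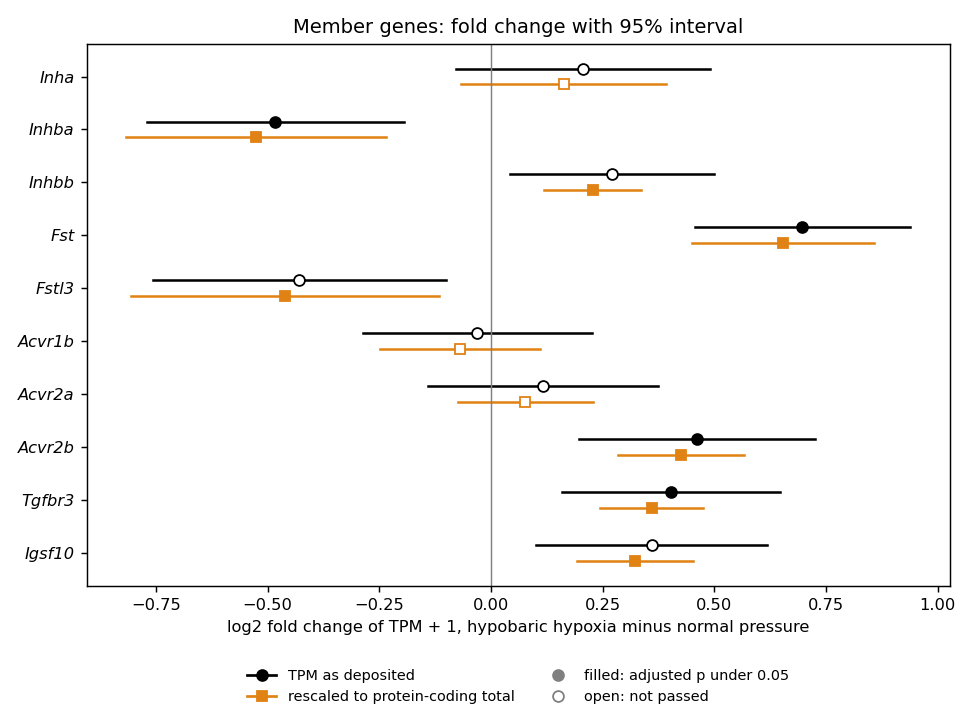
Log2 fold changes of the 10 genes, hypobaric hypoxia minus normal pressure, with 95% intervals, for TPM as deposited (circles) and rescaled to the protein-coding total (squares), filled where the limma adjusted p is under 0.05. Inhbb, Fstl3 and Igsf10 are filled only after rescaling, and all 10 keep their sign.

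The order of the members by level was the same in all 3 normal pressure libraries. It ran Inha, Inhbb, Inhba, Tgfbr3, Fst, Acvr2a, Acvr1b, Acvr2b, Igsf10 and Fstl3. Under hypoxia Inhba was the fifth in all 3 libraries, where at normal pressure it was the third. Tgfbr3 was above Fst in hypoxia replicates 1 and 3 and below it in replicate 2, so these neighbours did not differ beyond their spread. At normal pressure the ranges of Tgfbr3 and Fst overlapped, as did those of Acvr2a and Acvr1b and those of Acvr2b and Igsf10. Under hypoxia the ranges of Fst and Tgfbr3, of Tgfbr3 and Inhba, and of Acvr2b and Igsf10 overlapped. The other 5 genes held the same place in all 6 libraries beside Inha and Inhbb.

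**Figure D4:**
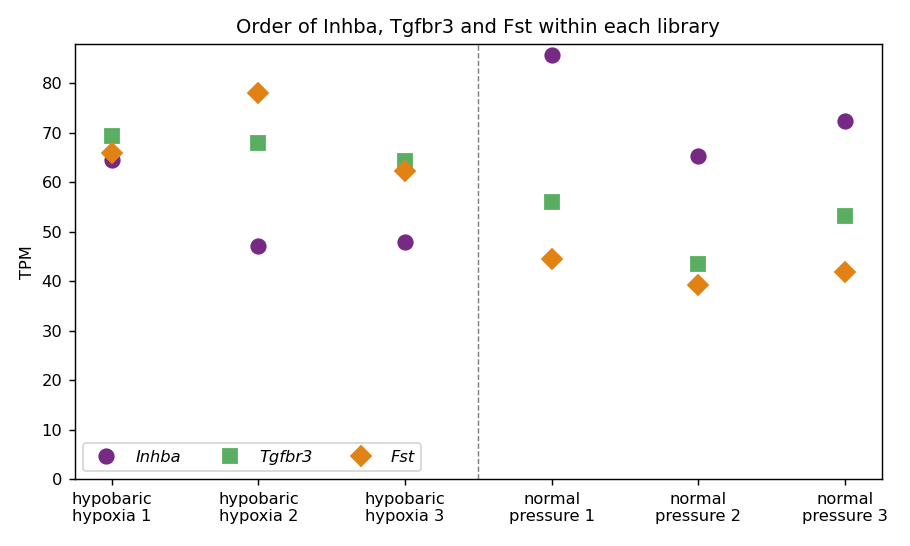
TPM of Inhba, Tgfbr3 and Fst in each library, hypobaric hypoxia left of the dashed line and normal pressure right of it. Inhba is the lowest of these genes in all hypoxia libraries and the highest in all normal pressure libraries.

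The pattern of Inha over the 6 libraries was most like those of Lnx1 (Pearson r = 0.993), Fastkd1 (r = 0.991) and Cacybp (r = 0.979), out of 10720 protein-coding features with a mean of at least 5 TPM. The 6 points share the group difference and each library's makeup, and no test was made.

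Other genes of the pathway were taken from 7 lists with 60 gene symbols outside the members, of which 51 were tested. Of these, 14 rose and 2 fell, where 11.1% of all features were called higher and 7.20% lower. The median log2 fold change was 0.21 over the lists and 0.08 over all features. With median-ratio scaling 18 were higher and 11 lower, where 16.0% of all features were called higher and 18.7% lower. After rescaling to the protein-coding total 24 were higher and 9 lower, where 21.6% of all features were called higher and 14.9% lower. Without hypoxia replicate 1 or hypoxia replicate 2 the rises numbered 9, and without normal pressure replicate 2 the falls numbered 6. Among ligands, Tgfb3 rose (log2 fold change 0.47, limma adjusted p = 0.0059) and Tgfb1 fell (-0.51, limma adjusted p = 0.016), although Tgfb1 did not pass without normal pressure replicate 3 (limma adjusted p = 0.064). Inhbc and Nodal did not exceed 0.05 TPM in any library. The convertases that cleave these precursors, Furin, Pcsk5, Pcsk6 and Pcsk7, gave no call among 4 by limma, with 1 at an unadjusted p under 0.05. After rescaling to the protein-coding total 1 was higher and 1 lower, and 1 was lower with median-ratio scaling or without normal pressure replicate 2. Of 8 further receptors the bone morphogenetic protein (BMP) receptors Bmpr1b (0.56, limma adjusted p = 0.0030) and Bmpr2 (0.51, limma adjusted p = 0.0056) rose. Bmpr2 measured 89.9, 97.1 and 88.3 TPM under hypoxia and 70.7, 56.2 and 66.2 TPM at normal pressure. After rescaling to the protein-coding total, lower calls numbered 3 among the ligands and 2 among these receptors, and both were 3 with median-ratio scaling.

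In the list of coreceptors, decoys and binding proteins, Chrdl1, which encodes a BMP antagonist, rose by 0.75 (limma adjusted p = 0.00097). Nog, another BMP antagonist, measured 2.42, 3.04 and 1.89 TPM under hypoxia and 0.82, 0.72 and 0.68 TPM at normal pressure. It is counted among the 14, but it reached the filter on low values only through the hypoxia libraries, so its difference is given with no test. It was the only list gene of which this held. The related Fstl1, at 39.3 to 41.9 TPM under hypoxia and 37.4 to 44.2 TPM at normal pressure, did not pass (log2 fold change -0.04, limma adjusted p = 0.83). Of 4 tested SMAD mediators, Zfyve9, an anchor that presents SMADs to the receptor, rose by 0.51 (limma adjusted p = 0.0078) and the shared partner Smad4 by 0.36 (limma adjusted p = 0.036). Smad4 did not pass without any 1 of the hypoxia libraries or without normal pressure replicate 1 (limma adjusted p between 0.053 and 0.13). Smad2 (0.16) and Smad3 (0.32), which carry the activin signal, did not pass (limma adjusted p = 0.39 and 0.089).

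Among 10 SMAD inhibitors and corepressors 4 rose and none was called lower. After rescaling to the protein-coding total 6 were higher and 1 lower, and 1 was also lower with median-ratio scaling or without normal pressure replicate 2. Inhibitory Smad6 rose by 0.66, the corepressors Tgif1 by 0.48 and Ski by 0.39, and inhibitory Smad7, which activin and TGF-beta induce, by 0.41 (limma adjusted p between 0.00069 and 0.024). Smad6 measured 13.00, 13.01 and 12.8 TPM under hypoxia and 7.28, 8.21 and 7.94 TPM at normal pressure. Smad7 did not pass without hypoxia replicate 1 (limma adjusted p = 0.070) or hypoxia replicate 2 (limma adjusted p = 0.060), and neither did Ski (limma adjusted p = 0.10 and 0.084). In the list of FSH signalling and transcription factors that act on inhibin genes, Esr2, the beta estrogen receptor gene, rose by 1.20 (limma adjusted p = 4.81e-06) and Creb1 by 0.34 (limma adjusted p = 0.046), and Runx2 fell by 2.46 on the log2 scale (limma adjusted p = 7.31e-05), among 10 tested. Creb1 passed in none of the fits that left out 1 library except normal pressure replicate 2 (limma adjusted p between 0.0501 and 0.18), and Runx2 did not pass with robust variance (limma adjusted p = 0.056). The FSH receptor gene Fshr measured 9.92, 8.57 and 8.22 TPM under hypoxia and 12.0, 10.02 and 11.2 TPM at normal pressure (log2 fold change -0.28, limma adjusted p = 0.11). The granulosa factors Foxl2 (0.19), Gata4 (0.21), Nr5a1 (0.27) and Nr5a2 (0.28) did not pass. Rescaled to the protein-coding total, 5 genes of this list were higher and 2 lower. Without a filter on low values Creb1, Smad4, Ski, Tgfb1 and Zfyve9 did not pass (limma adjusted p between 0.064 and 0.11).

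**Figure D5:**
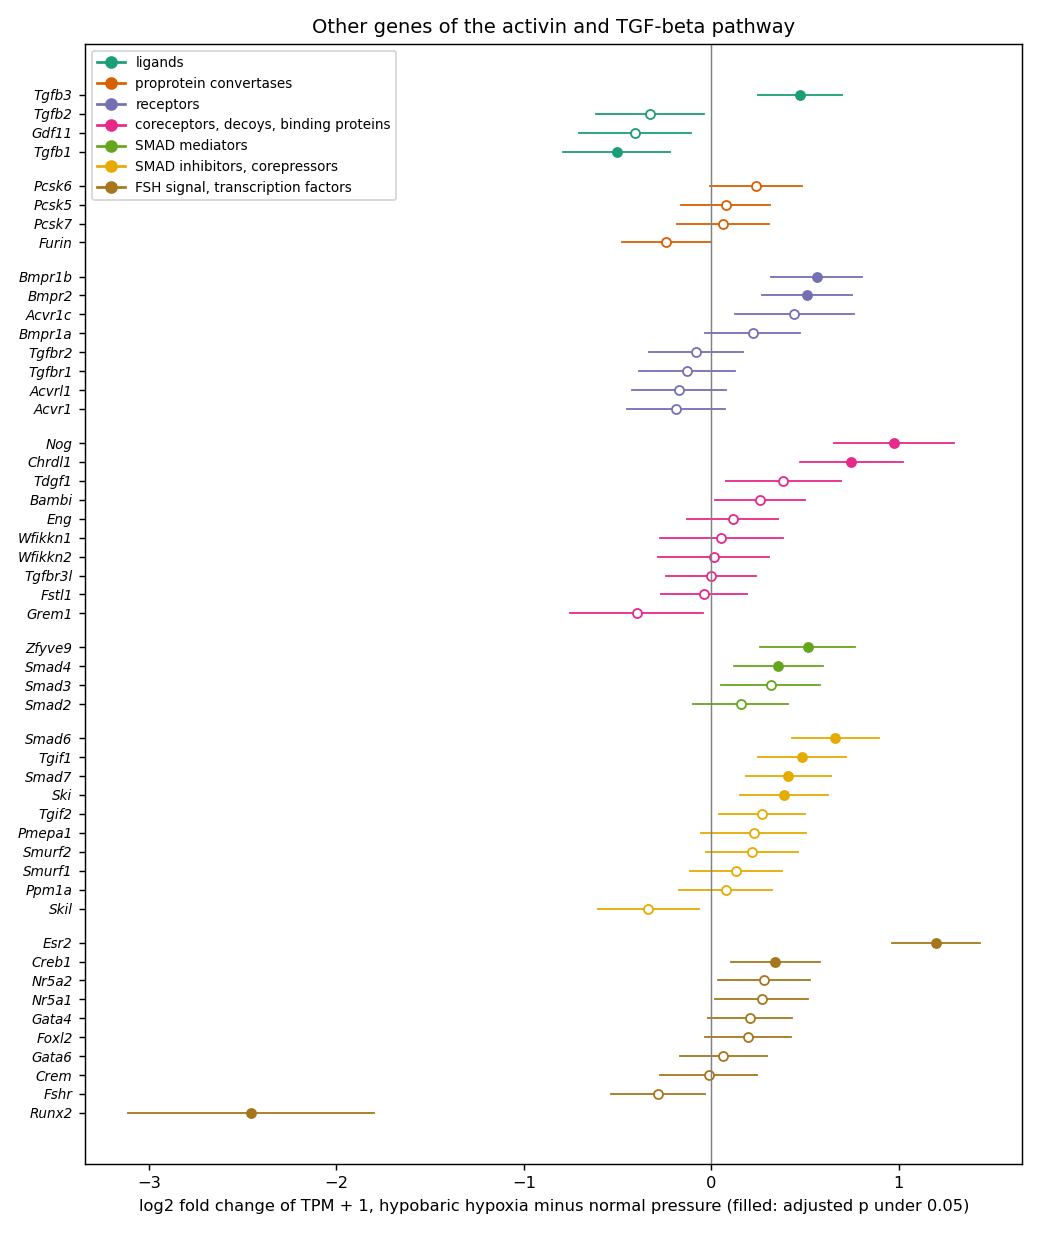
Log2 fold changes, hypobaric hypoxia minus normal pressure, of 50 tested pathway genes in 7 lists, with 95% intervals and filled points where the limma adjusted p is under 0.05. There are 13 filled points right of 0 and 2 left of it, Tgfb1 and Runx2.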

How the data were processed

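RNA from whole ovary was measured in 6 libraries, 3 per group, made with a SMARTer kit per the labels' protocols. TPM values of 33036 features, in 1 table with a column for each library, are what the authors deposited. HISAT2, Bowtie2, DESeq2 and the build GRCm38.p6 are named, without roles, per the submitters' processing notes. Not given in the sources used here are the read counter, the annotation and the use of strand. Columns summed to between 998175 and 998954. TPM is a share of a fixed total, so a few abundant features shift all others, and no counting interval can be given.

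Features with at least 1 TPM in at least 3 libraries were tested with limma 3.58.1 (R 4.3.3, mean-variance trend, no covariate) on log2(TPM + 1), two-sided, as the hypobaric hypoxia mean minus that of normal pressure, with Benjamini-Hochberg adjustment over all 17120. Fold changes on that scale understate changes of low genes. Errors are limma's moderated SE, or the SD of n = 3. Within-library ratios were compared by exact permutation tests (scipy 1.17.1). The fit was tested on simulated data. The members, the 7 pathway lists and the 10 marker lists were chosen with earlier results of these data known. All members are named, and of each pathway list the called genes; list genes named without a call, among them Fshr, Smad2 and Fstl1, were chosen after their values were seen. One list gene counted in the totals is not reported here. Positions, overlapping genes and promoter windows came from RefSeq on GRCm38.p6. The 15 alternatives covered the pseudocount, the filter, scaling, variance, a replicate block and each library left out.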

Additional observations from a re-analysis of the deposited data

How the results depend on the processing

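Among the 10 genes the directions held under every alternative except for genes that did not pass, namely Acvr1b, at 0.02 without normal pressure replicate 3 and from -0.11 to 0.0386 over the fits with 1 library left out (0.0386 without hypobaric hypoxia replicate 2), and Acvr2a, at -0.00058 without normal pressure replicate 2 and up to 0.20 with another library left out. Member genes called higher numbered 3 and lower 1. The counts were 5 and 2 under each of the 3 other scalings (median-ratio, quantile, protein-coding total), 1 and 0 with no filter on low values (Fst alone), and 4 and 2 with robust variance. When 1 library was left out they ran from 1 to 5 higher and from 0 to 2 lower. Called pathway genes numbered 14 higher and 2 lower. They were 10 and 1 with no filter, 12 and 4 with a minimum of 5 TPM, 18 and 11 with median-ratio, 23 and 9 with quantile and 24 and 9 with protein-coding total scaling, and 17 and 4 with robust variance, and ran from 9 to 15 higher and 2 to 6 lower with 1 library left out. The cause was not tested. Over all features, 3139 were called, against 1233 with no filter, 5940 with median-ratio, 6171 with quantile and 6242 with protein-coding total scaling, and 2065 without hypoxia replicate 2. The log2 differences of the 4 ratios kept their sign under each alternative computed for them, 0.16, 0.75, 0.60 and 0.35 with a pseudocount of 1, and with 1 library left out ranged from 0.11 to 0.21 for Inha over beta genes, 0.68 to 0.88 for Inhbb over Inhba, 0.49 to 0.68 for binding proteins over beta genes and 0.35 to 0.47 for Acvr2b over Acvr2a. Fstl3 was not tested with a minimum of 5 TPM.

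Replicates share numbers, but deviations of same-numbered libraries correlated at -0.034, 0.11 and -0.050, so the numbers were not taken to pair them. With a replicate block 4117 features were called, 4 members were higher and 2 lower, 16 pathway genes were higher and 5 lower, and the ratio differences were unchanged at 0.16, 0.76, 0.61 and 0.40 (exact sign-flip permutation p = 0.25, the smallest possible, for each). Fst, Inhba, Acvr2b and Tgfbr3 kept their calls, and Fstl3 (limma adjusted p = 0.013) and Igsf10 (limma adjusted p = 0.024) also passed.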

Other observations

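Markers of cells outside the follicle differed between the groups as well, where 11.1% of all features were called higher and 7.20% lower. After rescaling to the protein-coding total those shares were 21.6% and 14.9%. All 5 tested erythroid markers rose, with a summed level of 1663 to 2240 TPM in hypoxia libraries and 247 to 447 TPM in normal pressure libraries. Of 6 smooth muscle markers 4 fell, Tagln, Cnn1, Des and Actg2, with sums of 499 to 581 TPM under hypoxia and 729 to 776 TPM at normal pressure, and all 6 fell after rescaling to the protein-coding total. Among 5 tested adipose markers all fell, and none passed without normal pressure replicate 2 or with no filter on low values. Their sums were 72.0 to 153 TPM under hypoxia and 155 to 213 TPM at normal pressure. Of 9 oviduct and surface epithelium markers 3 fell, Ovgp1, Krt8 and Krt19, with sums of 357 to 613 TPM under hypoxia and 686 to 973 TPM at normal pressure. That count was 1 without hypoxia replicate 2 or normal pressure replicate 3 and 5 without hypoxia replicate 3, and no marker of this list passed with no filter on low values. Much of these sums was Ovgp1, which averaged 294 TPM under hypoxia and 585 TPM at normal pressure. Of 7 endothelial markers 1, Vwf, rose, and the sums overlapped, at 130.4 to 135 TPM under hypoxia and 107 to 132 TPM at normal pressure. The count was 2 with median-ratio scaling and 4 after rescaling to the protein-coding total. None of 7 macrophage markers was called by limma in either direction (1 at an unadjusted p under 0.05), with 1 lower without normal pressure replicate 2 and 3 lower with median-ratio scaling or after rescaling to the protein-coding total, and their sums overlapped, at 162 to 185 TPM under hypoxia and 171 to 209 TPM at normal pressure.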
